A study of Mus musculus with 6 samples.

Results

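The genes for the major urinary proteins (Mup) were described in livers of mice without hepatocyte Abca1 and of their floxed controls. The list of 8 symbols was Mup1, Mup2, Mup3, Mup7, Mup10, Mup19, Mup20 and Mup21, and a row of the deposited gene table was taken where its name, or 1 comma-separated part of it, equalled a symbol. Of the 8 symbols 6 had a row, in 4 of the 29981 rows of the table. These rows were Mup1, the joint row Mup7/Mup15/Mup2, the joint row Mup3/Mup21, and Mup20. No row was matched to Mup10 or Mup19, which are not analysed here as single genes. With Mup4, Mup5, Mup6 and Gm2083, which RefSeq lists as another name of Mup13, the family had 8 rows.

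Messenger RNA was sequenced from livers of C57BL/6 mice. The HSKO group (n = 3) carried a deletion of Abca1, the transporter that loads cholesterol and phospholipid onto apolipoprotein A-I, in hepatocytes by an Albumin-driven Cre recombinase. The WT group (n = 3) was labelled wildtype and consisted of mice with the floxed allele. All mice were fasted between 9 am and 1 pm before the livers were taken. Age and sex are not in the labels used here, and no label links each library to an animal of its own, so the tests reflect variation between libraries that may be technical.

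Major urinary proteins are small lipocalins, barrel-shaped carriers of hydrophobic ligands. In mice hepatocytes secrete them into blood, and the kidney passes them into urine, where they hold and slowly release volatile pheromones. Mup20, also called darcin, is itself a pheromone of male urine. Hepatic Mup transcription is higher in males and depends on the pulses of growth hormone acting through Stat5b. The genes lie in 1 cluster of recent duplicates, in which a central set of near-identical copies is flanked by older and more diverged genes such as Mup3, Mup20 and Mup21.

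In the GENCODE M21 annotation of GRCm38 (mm10) the cluster covered chr4:59956804-62150863, which is 2.19 Mb, and held 22 protein-coding Mup genes and 26 Mup pseudogenes. Of the coding genes 21 lay on the minus strand. Mup7 (chr4:60066469-60070475), Mup2 (chr4:60135932-60154289), Mup1 (chr4:60498012-60501960), Mup10 (chr4:60578260-60582199) and Mup19 (chr4:61778324-61782269) were spread along the cluster. Mup20 (chr4:62050234-62054158), Mup3 (chr4:62083476-62087342) and Mup21 (chr4:62147932-62150863) lay together at its end of higher coordinates. All 8 were on the minus strand.

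The promoters show how the listed genes divide into close copies. RefSeq promoter windows on GRCm38.p6, from 250 bases before to 50 after each annotated start, were held for 6 of the 8 genes, and 5 of those contained both motifs named here. Each stretch starts 15 bases before the first ATCAATA, the core of sites that Onecut1 (HNF6) binds, and ends with TATATAA, the core promoter element that positions the start of transcription. It is written 5' to 3' on the minus strand with these 2 motifs in capitals. The stretches lie at chr4:60139877-60140024 (Mup2), chr4:61782249-61782391 (Mup19), chr4:60582179-60582324 (Mup10), chr4:62087322-62087432 (Mup3) and chr4:62150843-62150950 (Mup21).
Mup2 promoter: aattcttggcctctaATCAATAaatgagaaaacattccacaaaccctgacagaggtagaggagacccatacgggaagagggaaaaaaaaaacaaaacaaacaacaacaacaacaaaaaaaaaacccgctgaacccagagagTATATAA
Mup19 promoter: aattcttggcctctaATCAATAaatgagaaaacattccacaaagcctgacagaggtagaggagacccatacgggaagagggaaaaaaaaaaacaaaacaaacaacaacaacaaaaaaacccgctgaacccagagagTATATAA
Mup10 promoter: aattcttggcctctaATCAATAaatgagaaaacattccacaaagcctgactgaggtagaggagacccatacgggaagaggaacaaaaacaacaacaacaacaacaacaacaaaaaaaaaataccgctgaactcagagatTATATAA
Mup3 promoter: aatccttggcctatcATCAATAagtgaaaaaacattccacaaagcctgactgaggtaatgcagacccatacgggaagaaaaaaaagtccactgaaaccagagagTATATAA
Mup21 promoter: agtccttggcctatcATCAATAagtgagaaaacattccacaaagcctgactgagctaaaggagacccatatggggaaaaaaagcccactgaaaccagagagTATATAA

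Mup2 and Mup19 were 94.6% identical over this stretch, Mup2 and Mup10 91.3%, and Mup10 and Mup19 90.5%. Mup3 and Mup21 were 90.1% identical to each other and 63.5% to 67.8% identical to the other 3. The A-rich spacer set the 2 kinds apart in length, with 119, 114 and 117 bases between the motifs in Mup2, Mup19 and Mup10, against 82 in Mup3 and 79 in Mup21. From TATATAA to the annotated start were 20, 24 and 23 bases in Mup2, Mup19 and Mup10, but only 4 in Mup3 and 1 in Mup21. Whether the box or the annotated start is in use in Mup3 and Mup21 was not tested. Read on both strands, ATCAATA was in 6 of the 6 member windows and in 14 of the 14 Mup windows of the table, against 2.05% of 32851 promoters. TATATAA was in 5 of the 6, with none in the Mup7 window, and in 3.24% of all promoters. The palindromic STAT site TTCNNNGAA was in 0 of the 6, against 8.3% of all promoters, and the C/EBP palindrome TTGCGCAA in 0 of the 6, against 0.183%. The Mup windows belong to duplicated genes, so their counts are not independent and cannot be weighed against the share of all promoters. These are matches of letters in a short window and say nothing of binding.

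The likeness of the transcripts decides how far single rows can be read. Mup1 and Mup2 were 99.5% identical in transcript sequence, and so were Mup1 and Mup19. Mup3 and Mup21 were 94.7% identical, and Mup2 and Mup3 73.2%. Mup20, without a promoter window here, was nearer to Mup1 (90.1%) than to Mup21 (88%) or Mup3 (75.7%). Of the 50-base windows of the Mup1 row, 85.5% also occurred in the Mup7/Mup15/Mup2 row and 61.7% in Gm2083 (Mup13). Of the windows of Gm2083, 83.9% occurred in the Mup7/Mup15/Mup2 row and 62.4% in Mup1. These 3 rows are called the central copies here. Mup20 had at most 3.07% of its windows in any other row, and the Mup3/Mup21 row at most 1.54%. Counting pseudogenes too, 94.8% of the Mup1 windows occurred elsewhere in the family, against 50.1% for Mup20, 15.6% for Mup3 and 19.3% for Mup21. The sources used here do not give the read length. The deposited gene values are named as RSEM values, but the settings for reads that match several copies are not stated. RefSeq also lists Mup7 among older symbols of Mup1, and Mup3 among those of Mup7, so a row name may follow another naming of the copies than the current one.

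**Figure D1:**
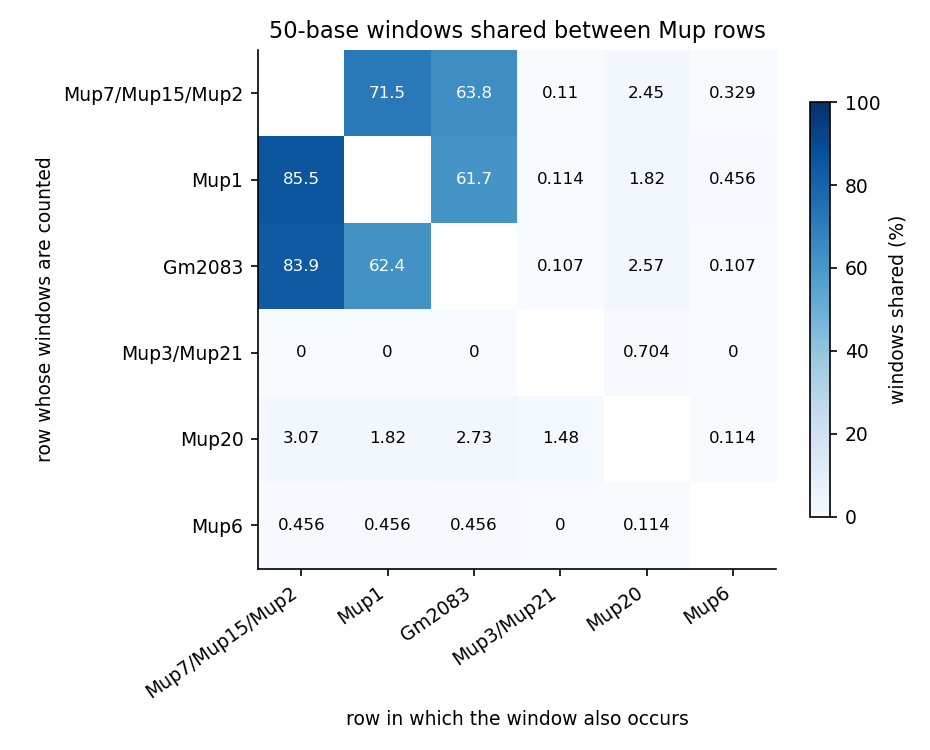
Share of 50-base windows of the transcripts of 1 row (vertical axis) that also occur in the transcripts of another row (horizontal axis), in percent, from GENCODE M21. The 3 central rows share 61.7% to 85.5% of windows with each other, while Mup3/Mup21, Mup20 and Mup6 share at most 3.07% with any row shown.

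Reads assigned to rows, recovered from the deposited values, numbered 631020 to 702013 in HSKO and 838637 to 933319 in WT, which is not the sequencing depth. The single row BC071253 took 46.2% to 57.8% of them in HSKO and 43.1% to 52.9% in WT, which left 275313 to 346848 reads in HSKO and 419807 to 507874 in WT for all other rows. It averaged 502071 ± 97802 normalised reads in HSKO and 281475 ± 78168 in WT and did not pass (limma adjusted p = 0.0906). Values below are the deposited ones, in which reads were scaled by 1 size factor for each library, and are called normalised read counts. Abca1, the targeted gene, had 2.92, 1.45 and 2.66 in HSKO replicates 1 to 3, against 15.3, 23.7 and 19.2 in WT, and was lower by limma (log2 fold change -2.62, SE 0.50, adjusted p = 0.000862). Fold changes here are differences of mean log2(value + 1), HSKO minus WT, which understates them for low rows. Adjusted p-values come from limma with the Benjamini-Hochberg method across the 2750 rows averaging 10 or more, and a row was called below 0.05.

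Per kilobase of transcript, the most abundant of the Mup rows in both groups was Mup7/Mup15/Mup2, with 2050 ± 934 normalised reads per kb in HSKO and 2237 ± 574 in WT (SD, n = 3 each, here and below). Mup3/Mup21 had 1034 ± 281 per kb in HSKO and 1668 ± 467 in WT, and Mup20 703 ± 148 in HSKO and 1063 ± 433 in WT. The row of Mup1 had 678 ± 907 per kb in HSKO and 145 ± 115 in WT. Gm2083 had 306 ± 318 in HSKO and 975 ± 538 in WT. In HSKO the order down from Mup7/Mup15/Mup2 was Mup3/Mup21, Mup20, Mup1 and Gm2083, and neighbours overlapped in mean ± SD at every step. In WT Gm2083 stood above Mup1, and that was the only step between neighbours of these 5 rows at which mean ± SD did not overlap. Mup6 was barely detected, with 5, 2 and 0 reads in HSKO and 8, 6 and 18 in WT, and Mup4 and Mup5 had 0 reads in every library.

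The diverged genes at the end of the cluster came out lower in HSKO on average. The Mup3/Mup21 row, which joins these neighbours in the genome, had 628, 1095 and 852 normalised reads in HSKO replicates 1 to 3, against 991, 1399 and 1766 in WT. HSKO replicate 2 lay above WT replicate 1, so the groups overlapped. The means were 859 ± 233 in HSKO and 1386 ± 388 in WT, and the row fell (log2 fold change -0.69, SE 0.27, limma adjusted p = 0.0455). The reads behind it numbered 430 to 753 in HSKO and 1299 to 3132 in WT.

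Mup20 (darcin) had 557, 810 and 590 normalised reads in HSKO, against 651, 877 and 1433 in WT. The highest HSKO library, replicate 2, lay between WT replicates 1 and 2. The means were 652 ± 137 in HSKO and 987 ± 402 in WT, and the log2 fold change of -0.54 did not pass (SE 0.27, limma adjusted p = 0.12). The order of the 6 libraries was the same for Mup20 and Mup3/Mup21, running from WT replicate 3 over WT 2, HSKO 2, WT 1 and HSKO 3 down to HSKO 1. The ratio of the Mup3/Mup21 row to Mup20 was 1.13, 1.35 and 1.44 in HSKO and 1.52, 1.59 and 1.23 in WT. These ratios overlapped, so both rows kept similar proportions across libraries although they share few windows. Their sum was 1511 ± 365 in HSKO and 2373 ± 783 in WT.

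The central copies showed no such steady order. The Mup7/Mup15/Mup2 row had 1332, 2998 and 1585 normalised reads in HSKO, against 2644, 1555 and 2254 in WT. HSKO replicate 2 was the highest of all libraries and HSKO replicate 1 the lowest, so WT lay inside the HSKO range. The difference was -0.18 on the log2 scale (SE 0.29) and did not pass (limma adjusted p = 0.636).

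The row of Mup1, whose protein is also known as a circulating factor in glucose and energy metabolism in mice, had 289, 1586 and 10.6 normalised reads in HSKO, against 82.4, 63.8 and 257 in WT. In reads these were 198, 1091 and 8 in HSKO and 108, 97 and 455 in WT. The highest library exceeded the lowest 149-fold within HSKO and 4.02-fold within WT. The difference was 0.65 on the log2 scale (SE 1.00) and did not pass (limma adjusted p = 0.623), and the direction rests on single libraries, being 2.60 (adjusted p = 0.00394) without HSKO replicate 3 and -0.94 (adjusted p = 0.392) without HSKO replicate 2.

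Gm2083 (Mup13), which is outside the listed 8, ran the other way. It had 633, 260 and 10.6 normalised reads in HSKO, against 1149, 1369 and 362 in WT. HSKO replicate 3 stood 59.5-fold below HSKO replicate 1, and WT replicate 3 lay below HSKO replicate 1. The row fell (log2 fold change -2.74, SE 0.86, limma adjusted p = 0.0168). Without HSKO replicate 3 the value was -1.03 and the call was lost (adjusted p = 0.0776). The call was also lost in DESeq2 (-1.67, adjusted p = 0.335), with robust estimation (0.296), under hepatocyte marker scaling (0.0805) and without the trend (0.0615).

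**Figure D2:**
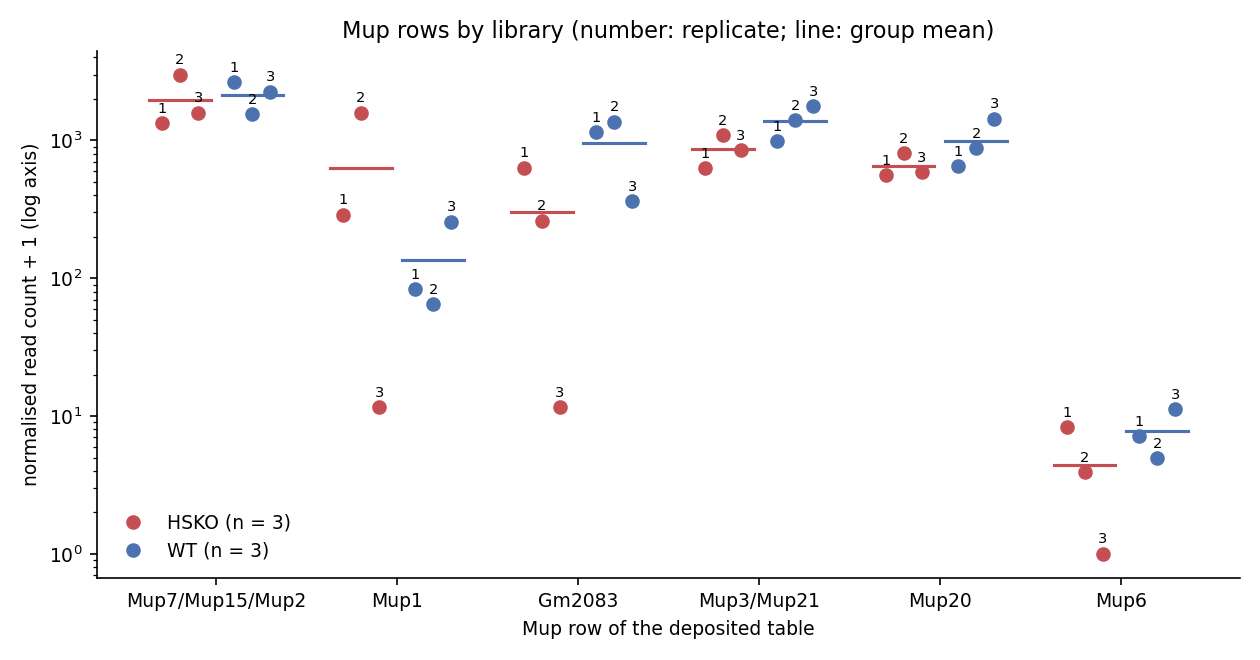
Normalised read count plus 1 (log axis) of 6 Mup rows in each library, HSKO in red left of WT in blue, with the replicate number above each point and a line at the group mean (n = 3). HSKO replicate 3 is at 10.6 in both Mup1 and Gm2083, whereas its Mup3/Mup21 and Mup20 values of 852 and 590 lie between those of the other HSKO libraries.

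Of the 4 member rows 1 was called lower and 0 higher. Over all 2750 rows tested 11.6% were called lower and 28.5% higher. In each of the 4 the groups overlapped, whereas 31.4% of all rows tested had every HSKO library above every WT library and 20.1% had every one below. The median log2 fold change of the 4 rows was -0.36, beside 0.07 for all rows tested. By limma 0 member rows were higher even at an unadjusted p under 0.05. At an adjusted p below 0.05 edgeR called 1 higher, Mup1 (log2 fold change 1.96, adjusted p = 0.0138), beside 24.9% of all rows. DESeq2 called 0 higher at that adjusted threshold. Limma with array weights also called Mup1 higher (1.92, adjusted p = 0.0456), beside 31.1% of all rows.

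Close copies can exchange reads, so the rows were also added up, and copies without a row of their own stay outside these sums. The 4 member rows summed to 2806, 6490 and 3039 in HSKO, against 4369, 3895 and 5710 in WT. HSKO replicate 2 was the highest library and the other 2 HSKO libraries were the lowest. The means were 4112 ± 2063 in HSKO and 4658 ± 941 in WT, a ratio of 0.883. Without HSKO replicate 2 the ratio was 0.627.

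Over every row of the family the sum was 3446, 6753 and 3049 in HSKO, against 5524, 5269 and 6082 in WT. The WT libraries were within 1.15-fold of each other, and the HSKO libraries within 2.21-fold. The coefficient of variation over libraries was 7.39% for this sum in WT, against 79.2% for Mup1 alone and 55.2% for Gm2083 alone. In HSKO it was 46% for the sum, against 134% for Mup1 and 104% for Gm2083, but 45.6% for Mup7/Mup15/Mup2, 27.2% for Mup3/Mup21 and 21.1% for Mup20, so the HSKO sum was no steadier than these 3 rows. In WT these 3 rows had 25.7%, 28% and 40.8%. Of the reads outside BC071253, the family took 0.856%, 1.57% and 0.661% in HSKO (95% Wilson intervals 0.823 to 0.892, 1.52 to 1.61 and 0.635 to 0.689) and 1.72%, 1.58% and 2.26% in WT (1.69 to 1.76, 1.54 to 1.61 and 2.22 to 2.3). These intervals cover counting error only. By this share HSKO replicates 1 and 3 lay below every WT library, and HSKO replicate 2 was within the interval of WT replicate 2.

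Within the central copies the make-up of the assigned reads changed from library to library. Mup1 made up 12.8%, 32.7% and 0.662% of the reads of the 3 rows in HSKO (Wilson intervals 11.3 to 14.6, 31.2 to 34.4 and 0.336 to 1.3) and 2.13%, 2.14% and 8.93% in WT (1.76 to 2.56, 1.75 to 2.6 and 8.18 to 9.75). Gm2083 made up 28.1%, 5.37% and 0.662% in HSKO (25.9 to 30.4, 4.66 to 6.19 and 0.336 to 1.3) and 29.6%, 45.8% and 12.6% in WT (28.4 to 30.9, 44.4 to 47.3 and 11.7 to 13.5). In HSKO replicate 3 nearly all of these reads, 98.7%, were in the Mup7/Mup15/Mup2 row. The summed central copies were 2254, 4845 and 1606 in HSKO, against 3875, 2988 and 2872 in WT. The coefficient of variation of that sum was 59.1% in HSKO and 16.9% in WT, below those of Mup1 and of Gm2083 in both groups. It was above the 45.6% of the Mup7/Mup15/Mup2 row in HSKO and below the 25.7% of that row in WT. The shares differed between libraries of 1 group by more than counting error. The intervals leave out any error in assigning reads between copies. The part of the assignment of reads between copies in these differences was not tested.

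**Figure D3:**
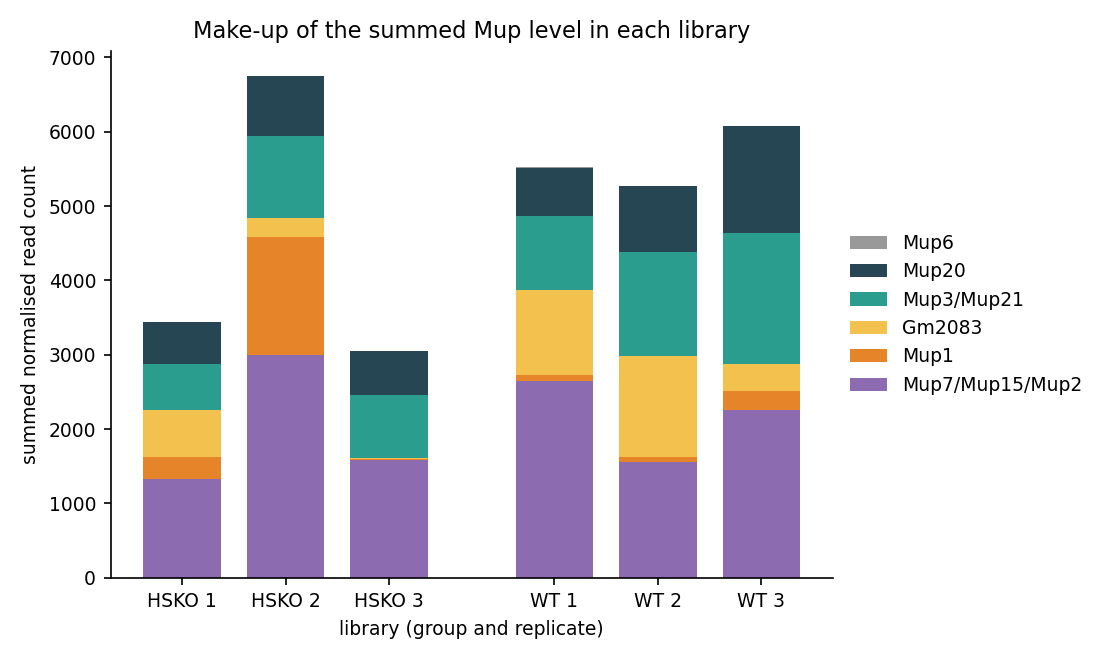
Stacked normalised read counts of the Mup rows in each library (horizontal axis; HSKO left, WT right), with height the summed level. The WT sums run between 5269 and 6082, HSKO replicate 2 reaches 6753, and HSKO replicates 1 and 3 stay at 3446 and 3049, while the share in orange (Mup1) and yellow (Gm2083) differs between libraries of 1 group.

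Which Mup rows pass depends on the scaling of the libraries. The Mup3/Mup21 row was negative under each of the 6 scalings and in DESeq2 and edgeR, between -1.36 with total reads and -0.16 with scaling to the summed hepatocyte markers. Its call was lost under hepatocyte marker scaling (adjusted p = 0.744), without the filter on low rows (0.146), without the trend (0.0992), and on leaving out HSKO replicate 1 (0.228), HSKO replicate 3 (0.0825), WT replicate 2 (0.125) or WT replicate 3 (0.127). The median of all rows tested moved likewise and was 0.07 with the deposited scaling, -0.57 with total reads and 0.57 with hepatocyte marker scaling. Mup20 passed with total reads (-1.21, adjusted p = 0.00219), upper quartile scaling (-0.86, 0.025), quantile normalization (-1.18, 0.00475), edgeR (-0.84, 0.00997), total reads without BC071253 (-1.03, 0.00186) and with WT replicate 1 left out (-0.80, 0.0206), and stood at -0.01 under hepatocyte marker scaling. The share of all rows called lower was 38% with total reads, 33.2% with total reads without BC071253, 24.8% with upper quartile scaling, 21.9% with edgeR, 18.3% with quantile normalization, 6.62% with DESeq2 and 1.09% with hepatocyte marker scaling. Mup7/Mup15/Mup2 was -0.86 (adjusted p = 0.00974) with total reads, -0.91 (0.0062) with quantile normalization, -0.67 (0.0275) with total reads without BC071253 and 0.34 (0.516) with hepatocyte markers, a change of direction. The summed member level, HSKO over WT, was 0.521 with total reads and 1.3 with hepatocyte marker scaling.

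**Figure D4:**
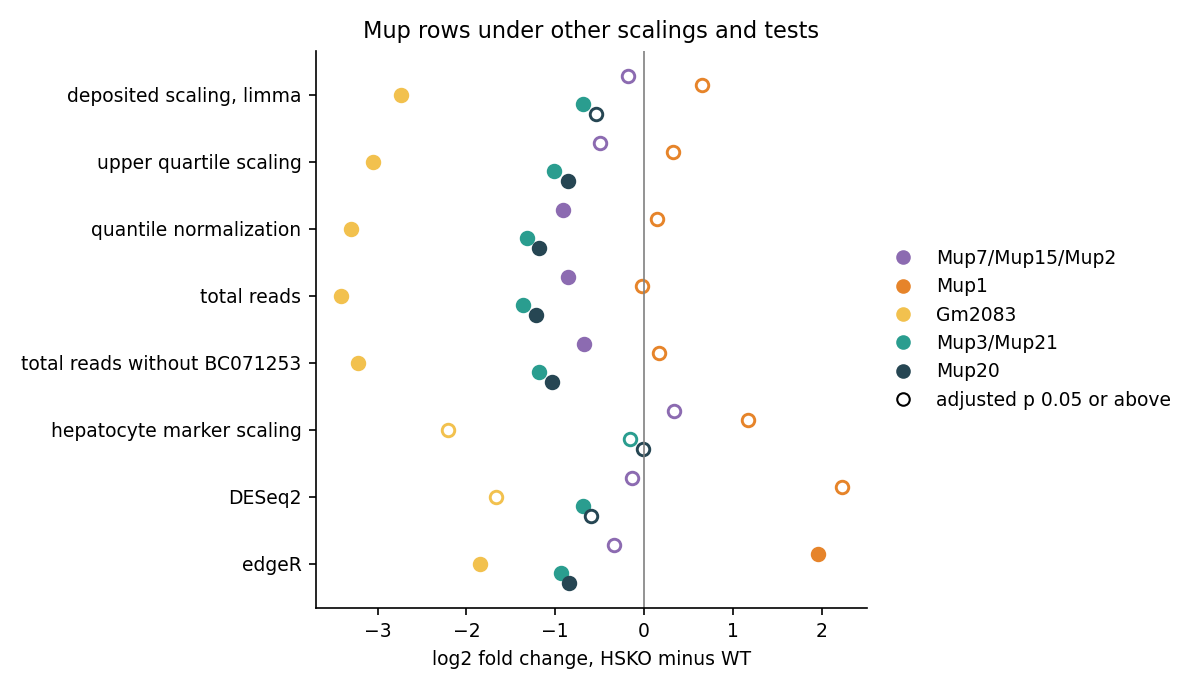
Log2 fold change, HSKO minus WT, of 5 Mup rows (colours) under the deposited scaling, other scalings, DESeq2 and edgeR (vertical axis), filled where the adjusted p was under 0.05. Mup3/Mup21 and Mup20 stay next to each other from -1.36 and -1.21 with total reads to -0.16 and -0.01 with hepatocyte marker scaling, while Mup1 runs from -0.02 to 2.23.

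The summed level of hepatocyte markers was lower in the HSKO libraries as well. The 14 hepatocyte marker rows, among them albumin (Alb) and transthyretin (Ttr), summed to 8467, 9430 and 12453 in HSKO, against 12750, 15084 and 15421 in WT, so that the groups did not overlap. Of the 14, 3 were called lower and 0 higher, beside 11.6% and 28.5% of all rows tested. The median log2 fold change was -0.44, with 13 negative and 1 positive. The positive row was Tat at 0.74 (limma adjusted p = 0.0658), and Hnf4a (-0.06), Apoa1 (-0.04) and Hpd (-0.03) hardly moved. Alb alone averaged 3932 in HSKO and 6426 in WT, of marker sums averaging 10117 and 14418. In these bulk samples fewer hepatocytes, less RNA per hepatocyte and the scaling of the libraries cannot be told apart. The lower sum was not particular to hepatocyte markers, whose ratio of means, HSKO over WT, was 0.702. That ratio was 0.553 for stellate, 0.659 for endothelial, 0.693 for leukocyte and 0.728 for cholangiocyte markers. It was 0.846 for Kupffer cell and 0.968 for erythroid markers. Markers of other liver cells were low. Kupffer cell markers summed to 57, 43.6 and 81.1 in HSKO and 59.5, 96.1 and 59.2 in WT (11 rows), endothelial markers to 20.4 to 36.5 in HSKO and 39.7 to 52.5 in WT (8 rows), and stellate cell markers to 16.1 to 32 in HSKO and 41.7 to 45 in WT (9 rows). Cholangiocyte markers summed to 5.32 to 17.5 in HSKO and 10.7 to 16.5 in WT, with Krt19 and Krt7 at 0. Erythroid markers summed to 14.5 to 21.3 in HSKO and 14.1 to 25 in WT. Leukocyte markers summed to at most 2.66 in HSKO and 3.29 in WT, with S100a8, S100a9 and Cd3e at 0. The part of these markers in the Mup values was not tested beyond the hepatocyte scaling above.

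Other liver lipocalins, relatives of the Mup proteins, were mostly low or close to the threshold. Of 11 lipocalin rows 5 passed the filter on low values, with 0 called higher and 2 lower and a median log2 fold change of -0.52. Over all rows tested 28.5% were called higher and 11.6% lower. Orm1, an acute phase glycoprotein that carries small drugs and lipids, had 58.5, 45.1 and 66.5 in HSKO, against 169, 91.5 and 95.3 in WT. It fell (log2 fold change -1.01, SE 0.27, limma adjusted p = 0.00696). Apom, the carrier of sphingosine 1-phosphate on HDL, had 11.7, 10.2 and 13.3 in HSKO, against 23.7, 21.1 and 24.8 in WT, and fell by 0.93 (adjusted p = 0.019). Neither gene's groups overlapped, and 20.1% of all rows tested had every HSKO library below every WT library. The retinol carrier Rbp4 averaged 176 ± 21.2 in HSKO and 248 ± 24.4 in WT and did not pass (adjusted p = 0.0884).

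Of 17 secreted plasma protein rows, all above the filter, 0 were called higher and 10 lower, with a median of -0.65. Over all rows tested 28.5% were called higher and 11.6% lower. The antitrypsin row Serpina1a/Serpina1d averaged 519 ± 36.6 in HSKO and 886 ± 158 in WT and fell by 0.76 (adjusted p = 0.0132, limma). The fibrinogen chain Fgg averaged 281 ± 31.5 in HSKO and 470 ± 87.2 in WT and fell by 0.73 (adjusted p = 0.0174). The haem carrier Hpx averaged 153 ± 47.3 in HSKO and 268 ± 65.3 in WT and fell by 0.82 (adjusted p = 0.0187). Antithrombin (Serpinc1) averaged 139 ± 27 in HSKO and 223 ± 19.3 in WT and fell by 0.69 (adjusted p = 0.0264). Hepatocyte marker scaling ended all 12 calls of the lipocalins and plasma proteins. With 1 library left out, the number called lower in both lists was 1 for HSKO replicate 2, 2 for HSKO replicate 1, 13 for HSKO replicate 3, and 10, 6 and 9 for WT replicates 1 to 3. The share of all rows called lower in these fits is not given, so a change over all rows cannot be told apart. On leaving out HSKO replicate 1 or 2 the adjusted p of the 4 named plasma proteins lay between 0.0509 and 0.124. Hpx was also lost with WT replicate 1 left out (0.064), Serpinc1 with WT replicate 2 left out (0.119), and Apom with HSKO replicate 2 (0.0501) or WT replicate 3 (0.0819) left out. Apom was lost in DESeq2 (-0.98, adjusted p = 0.0919) and without the filter (0.0814) too. The plasma list shares Alb, Ttr, Apoa1, Apoh, Fgb, Ahsg and Serpina1b with the hepatocyte markers.

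Mup genes share their control by growth hormone with other genes that are higher in male liver. Of 14 male-biased rows 10 passed the filter, with 0 called higher and 4 lower and a median of -0.55. Over all rows tested 28.5% were called higher and 11.6% lower. Hsd3b5, a steroid-converting enzyme, had 11.7, 26.2 and 16 in HSKO, against 53.4, 35.5 and 37.2 in WT. It fell (log2 fold change -1.23, SE 0.31, limma adjusted p = 0.00412), without overlap, as did 20.1% of all rows tested. The cytochrome P450 Cyp2d9 averaged 82.9 ± 26.1 in HSKO and 150 ± 38.1 in WT and fell by 0.87 (adjusted p = 0.02). The fatty acid hydroxylase Cyp4a12a averaged 9.11 ± 4.43 in HSKO and 21.5 ± 6.85 in WT and fell by 1.23 (adjusted p = 0.0203). The complement component C6 averaged 23 ± 1.1 in HSKO and 37.7 ± 5.6 in WT and fell by 0.68 (adjusted p = 0.0463). The remaining male-biased rows tested did not pass, among them Slco1a1 at -0.47 (adjusted p = 0.193) and Serpina1e at -0.46 (0.193). Of the 10 rows 9 were negative and 1 positive, Moxd1 at 1.00 (limma adjusted p = 0.172). Hepatocyte marker scaling left 0 of the 4 calls. With 1 library left out the number of male-biased rows called lower, newly called rows included, was 1 for WT replicate 3, 2 for HSKO replicate 3 and WT replicate 1, and 3 for the others. These counts also stand without the share of all rows called lower in the same fits. Hsd3b5 kept its call each time, whereas C6 lost it each time (adjusted p 0.0605 to 0.167). Cyp2d9 lost it with HSKO replicate 3 (0.11), WT replicate 1 (0.0512) or WT replicate 3 (0.0662) left out, and Cyp4a12a with HSKO replicate 3 (0.0821), WT replicate 2 (0.0683) or WT replicate 3 (0.13) left out. In DESeq2 Cyp4a12a (adjusted p = 0.0551) and C6 (0.13) did not pass.

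Female-biased genes were close to undetected. Of 21 rows 13 had 0 reads in every library, and none of the 21 passed the filter. All 21 together held 58 reads over the 6 libraries. The highest, the thioesterase Acot3 and the steroid hydroxylase Cyp17a1, averaged 1.37 ± 1.33 and 3.15 ± 4.25 in HSKO and 4.17 ± 4.28 and 0.881 ± 0.39 in WT. Y-linked genes (Ddx3y, Eif2s3y, Kdm5d and Uty) held 10, 16 and 6 reads in HSKO and 18, 26 and 40 in WT, and Xist 0, 6 and 4 reads in HSKO and 7, 2 and 1 in WT.

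Of 10 rows of growth hormone and STAT5 signalling 4 passed the filter. The growth hormone receptor Ghr had 30.7, 59.6 and 37.2 in HSKO, against 52.7, 76.3 and 80.1 in WT. It fell (log2 fold change -0.73, SE 0.28, limma adjusted p = 0.0461), with HSKO replicate 2 above WT replicate 1. The prolactin receptor Prlr had 24.8, 29.1 and 43.9 in HSKO, against 18.3, 20.4 and 15.2 in WT, and rose by 0.79 (SE 0.29, adjusted p = 0.036) without overlap. Over all rows tested 31.4% had every HSKO library above every WT library, and 28.5% were called higher and 11.6% lower. Both calls sat close to the threshold. Ghr did not pass under hepatocyte marker scaling (-0.22, adjusted p = 0.675) or in DESeq2 (0.0849), and Prlr did not pass with total reads (0.15, adjusted p = 0.713), with edgeR (0.0799) or with DESeq2 (0.0771). Leaving out WT replicate 2 or 3, or HSKO replicate 1 or 3, ended the Ghr call, and leaving out any WT library, HSKO replicate 2 or HSKO replicate 3 ended that of Prlr, with adjusted p up to 0.189 and 0.145. The growth hormone targets Igf1 (-0.30, adjusted p = 0.342) and Igfals (-0.11, adjusted p = 0.849) did not pass. Stat5b, in a row shared with AK088966, was below the filter at 3.32 ± 0.933 in HSKO and 7.89 ± 3.51 in WT, and Socs2, a feedback inhibitor, at 1.33 ± 2.3 in HSKO and 3.97 ± 1.36 in WT.

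Of 10 rows of transcription factors linked to Mup or male-biased liver expression 5 passed the filter, with 1 called in each direction and a median of 0.02. Over all rows tested 28.5% were called higher and 11.6% lower. Groups without overlap were also common, at 31.4% of rows with HSKO above WT and 20.1% with HSKO below. Cebpb, a C/EBP factor of the hepatic acute phase and fasting response, had 127, 108 and 168 in HSKO, against 64.9, 59.9 and 47.9 in WT. It rose (log2 fold change 1.19, SE 0.25, limma adjusted p = 0.00142) without overlap, and was 0.53 (adjusted p = 0.0975) with total reads. Onecut1, whose core site stands in the printed promoters, shares a row with Gm16551. That row had 8.77, 10.2 and 9.31 in HSKO, against 15.3, 27.6 and 18 in WT, and fell (log2 fold change -0.99, SE 0.34, adjusted p = 0.0254) without overlap. It did not pass in DESeq2 (-1.11, adjusted p = 0.0852), under hepatocyte marker scaling (-0.50, 0.322), or on leaving out WT replicate 2 (0.185) or 3 (0.065). Hnf4a and Cebpa, which maintain hepatocyte expression, were at -0.06 (adjusted p = 0.861) and 0.09 (adjusted p = 0.783). Zhx2, known in mouse liver as a regulator of Mup genes and named after its values were seen, had 0, 1 and 0 reads in HSKO and 7, 6 and 11 in WT, below the filter and untested. Cux2 had 0 reads in every library.

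**Figure D5:**
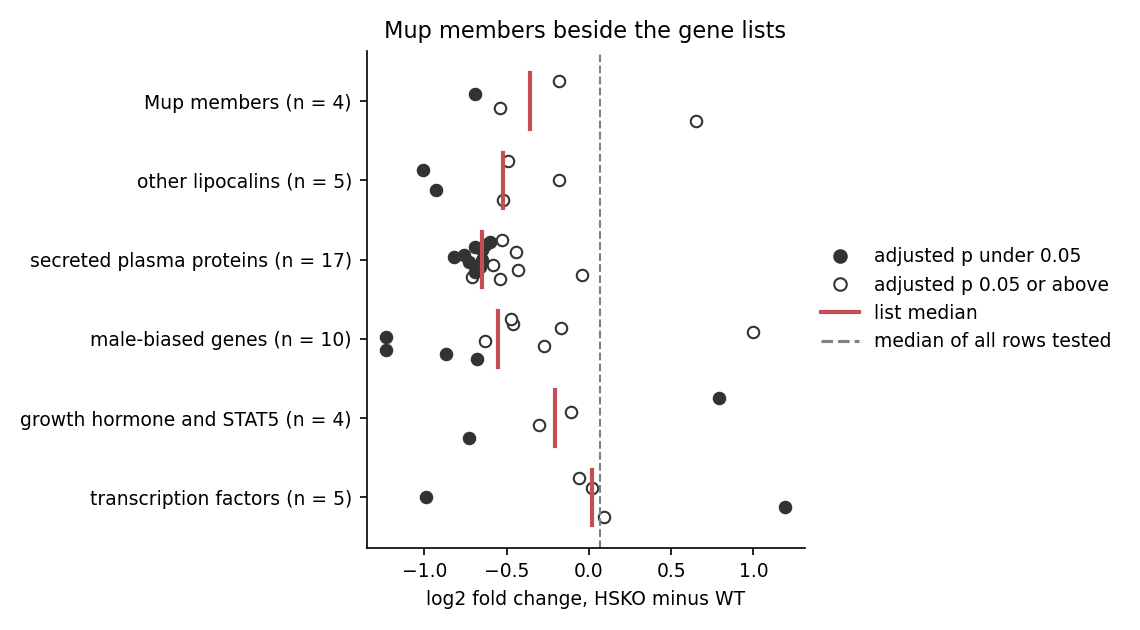
Log2 fold change, HSKO minus WT, of each row tested in the Mup members and 5 gene lists (vertical axis), filled where the adjusted p was under 0.05, with the list median in red and the median of all rows tested (0.07) dashed. The medians are -0.36 for the Mup members, -0.52 for other lipocalins, -0.65 for secreted plasma proteins and -0.55 for male-biased genes, and Prlr and Cebpb are the filled points on the right.

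The profile of the summed member rows over the 6 libraries was compared with that of 2745 other rows by the root mean square difference of centred log2 values. Among the closest were Fgf1, a growth factor (0.11), Krt8, a keratin of hepatocytes (0.13), Myo6, a myosin motor (0.14), and Pmpcb, a mitochondrial processing peptidase subunit (0.20). The median over all rows was 0.67, and the size of the Mup profile itself was 0.44. These 4 were low rows with 5 to 43 reads per library, and none was called, with limma adjusted p between 0.323 and 0.684. Because the rows were picked for closeness to the Mup profile, a shared peak in HSKO replicate 2 is no separate result. Among the HSKO libraries each of the 4 was highest there, at 16 to 26.2 normalised reads.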

How the data were processed

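Each value of the deposited table is a signal that the authors obtained by scaling a gene's reads with the library's size factor. RSEM 1.2.9, DESeq 1.16.0, Bowtie, FastQC 0.11.3 and the mm10 build are listed, without roles, per the submitters' processing notes. The labels' protocols name a stranded mRNA kit with paired-end sequencing. The sources used here state no annotation, strand setting or read filter, so overlapping and antisense genes cannot be told apart, and 712 rows name several genes.

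Division by the value of 1 read gave whole reads for 100% of values (tolerance 0.001). The main test was limma 3.58.1 (R 4.3.3) on log2(value + 1) with a trend, 2-sided, over rows with a mean of at least 10. DESeq2 1.42.0 and edgeR 4.0.16 on the recovered reads, other scalings, filters and pseudocounts, and each library left out were alternatives. The limma procedure was run on simulated counts with the same dispersion for every row. This checks the code and not its error rate on these libraries. Replicate libraries differed by more than sampling noise (chi-square per degree of freedom 2.12 to 8.68) and each counted once.

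Members and lists were chosen with earlier results of these data known. Named genes were every Mup row, Abca1, BC071253, sex chromosome genes, up to 4 called genes of each list by p (or 2 by level), and the 5 rows closest in profile; others are list members given for completeness, and a few are not reported here. Windows and coordinates come from GENCODE M21, promoters from RefSeq GRCm38.p6.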

Additional observations from a re-analysis of the deposited data

How the results depend on the processing

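With 3 libraries per group and 8 to 3997 reads behind a member row in a library, calls near the threshold depended on single settings. Of the member rows, 0 were called higher, but 1 with array weights, 1 with edgeR and 0 to 1 with a library left out. The main count of 1 lower became 0 without the filter, without the trend and under hepatocyte marker scaling, 2 with upper quartile scaling and edgeR, 3 with total reads (with or without BC071253) and quantile normalization, and 0 to 2 with a library left out. Over all rows tested the share called lower was 11.6% in the main test, 38% with total reads and 33.2% with total reads without BC071253. It was 24.8% with upper quartile scaling, 21.9% with edgeR, 18.3% with quantile normalization and 1.09% with hepatocyte marker scaling. Called higher were 24.9% of all rows with edgeR and 31.1% with array weights. The summed ratio of 0.883 was 0.785 over every Mup row, 0.717 with upper quartile scaling, 0.521 with total reads, 0.615 without BC071253, 0.53 with quantile normalization, 1.3 with hepatocyte markers, and 0.627 to 1.02 with a library left out. Mup1 turned to -0.02 with total reads and ran from -0.94 (without HSKO replicate 2) to 2.60 (without HSKO replicate 3). Mup7/Mup15/Mup2 turned to 0.34 with hepatocyte markers and 0.23 with array weights, and ran from -0.53 (without HSKO replicate 2) to 0.05 (without HSKO replicate 1). Shares of all rows called with a library left out are not given. The cause was not tested.

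Growth hormone, STAT5 and regulator rows called higher (2) numbered 0 with total reads, 1 without the filter, with a minimum mean of 50, upper quartile scaling, total reads without BC071253, quantile normalization, the replicate block, DESeq2 or edgeR, and 1 to 2 with a library left out. Those called lower (2) numbered 0 with hepatocyte markers and DESeq2, 1 without the filter, without the trend or with a minimum mean of 50, 3 with total reads without BC071253 and quantile normalization, 5 with total reads, and 0 to 2 with a library left out. Sex-biased rows called higher (0) numbered 1 with array weights and 0 to 1 with a library left out. Those called lower (4) numbered 0 with hepatocyte markers, 2 without the filter, without the trend, with a minimum mean of 50 or DESeq2, 7 with upper quartile scaling, total reads without BC071253, quantile normalization and edgeR, 9 with total reads, and 1 to 3 with a library left out. Lipocalins and plasma proteins called lower (12) numbered 0 with hepatocyte markers, 2 without the filter, 3 without the trend, 20 with upper quartile scaling and edgeR, 21 with total reads without BC071253 and quantile normalization, 22 with total reads, and 1 to 13 with a library left out. The share of all rows called lower moved with the scaling too, from 1.09% with hepatocyte markers to 38% with total reads. Called higher were 28.5% of all rows in the main test, 24.9% with edgeR and 31.1% with array weights. The median log2 fold change of all rows was -0.57 with total reads. For the other settings, and with a library left out, shares of all rows called higher are not given. These counts can therefore not be told from a change over all rows.

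Replicate numbers did not pair the libraries (correlation of deviations -0.0275 to -0.0209). With the replicate block Mup3/Mup21 had an adjusted p of 0.0453, and 1 member row was called lower and 0 higher, the counts without the block. Among values for single genes under an alternative, 286 stayed on the same side of the threshold, 90 lost and 12 gained a call, and 5 changed direction.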
